A study of Homo sapiens with 9 samples.

Results

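The transcripts of Daudi cells carrying a hairpin against MYC were compared with those of Daudi cells carrying a control hairpin. Daudi is a B-cell line established from Burkitt lymphoma, in which a translocation places MYC under the control of an immunoglobulin locus. The comparison used 6 of the 9 arrays of the series, the 3 titled C-Myc-sh and the 3 titled Ctrl-sh. The other 3 arrays, titled Slc7a5-sh, carried a hairpin against the amino acid transporter gene SLC7A5 and shared only the estimate of the spread, except where they are named. All 3 groups were infected, kept under puromycin for 48 h and grown in medium with serum and added glutamine. The C-Myc-sh cells were the positive control of the study. The sequence of each hairpin and the number of hairpins per target are not given in the sources used here, so effects of the MYC level and other effects of that hairpin cannot be told apart. The arrays are labelled as biological replicates, and the labels do not say whether they came from separate infections. The p-values therefore measure the spread between these samples.

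Each array gave a log2 signal for 54613 probe sets, of which 41091 had exactly 1 gene symbol. These stood for 19775 genes, and 11250 of them had a mean signal over the 9 arrays at or above 5.77 on the log2 scale, the median of all probe sets, and were tested. A gene was taken as clearly above background where its mean over the 6 arrays compared, or the mean of a group where one is named, was at or above 8.71, the 75th percentile of all probe sets. The signals are scaled to the same target on every array, so they are relative, and a change in the total RNA of a cell cannot be read from them. In RNA from a whole culture, fewer cells of a type and less RNA per cell cannot be told apart either.

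MYC is a basic helix-loop-helix leucine zipper factor that pairs with MAX and binds E-boxes, short palindromes of which CACGTG is the preferred form. It raises the transcription of genes for ribosome assembly, translation, nucleotide synthesis and the cell cycle, and it lowers others, in part by blocking the activator MIZ1. In germinal centre B cells MYC is held low by BCL6, and Burkitt cells keep many features of the germinal centre dark zone together with constant MYC.

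Array medians lay between 6.05 and 6.26, and the correlation across genes between arrays of the same group, where genes are no independent replicates, was 0.972 to 0.977. With 3 arrays a group the precision is limited by their number. Of 20 B-cell and germinal centre markers with a probe set, all 20 were tested and 18 were clearly above background. Their summed linear signal was 120189 to 120683 in the Ctrl-sh arrays and 113517 to 120765 in the C-Myc-sh arrays. Of 24 T and NK cell markers TRBC1 was clearly above background in both groups, LCK and IL7R were so in Ctrl-sh alone, and 13 lay below 5.77 in both groups. LCK fell by 2.20 and IL7R fell by 3.42 on the log2 scale, while TRBC1, which makes up most of the summed signal of this list, rose by 0.30. Another LCK probe set, with a mean signal of 7.87, gave -0.45. CD247 fell by 1.32, a call lost with the mean of all its probe sets (-0.70, limma adjusted p = 0.207). None of the 18 myeloid or 22 epithelial and fibroblast markers was clearly above background over the 6 arrays, with 14 and 15 below 5.77 in both groups. Of the second list ACTA2 rose, by 2.16 against the level of 5.77. COL1A1 fell by 0.59 with the probe set used, a call lost in 5 of the alternatives. Another COL1A1 probe set, with a mean signal of 8.13, rose by at least 5.73 against 5.77 and was clearly above background in C-Myc-sh. The direction of COL1A1 therefore depends on the probe set. The summed signal of the T and NK markers was 9073 to 10050 in Ctrl-sh and 9503 to 9806 in C-Myc-sh. That of the myeloid markers was 619 to 782 and 483 to 791, and that of the epithelial and fibroblast markers 1192 to 1446 and 1132 to 1493. The ranges of both groups overlapped for all 4 lists. These sums use the probe set that stands for each gene, so they leave out the COL1A1 probe set that rose. The part of these other-cell markers in the results was not tested.

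MYC itself, read by a single probe set, gave log2 signals of 13.16, 13.26 and 13.24 in Ctrl-sh and 12.12, 12.14 and 12.13 in C-Myc-sh. The 3 C-Myc-sh arrays lay close to each other and below every control array. MYC fell to 46.9% of the control signal (log2 change -1.09, SE 0.05, limma adjusted p = 4.7e-10). Of 10 tested genes of the MYC and MAX network, 4 fell and 0 rose, and 2 fell with the mean of all probe sets. MXI1, a MAX partner that opposes MYC, was one of them and fell by 0.40 on the log2 scale (SE 0.09).

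The comparison called 6178 of the 11250 tested genes at a limma adjusted p under 0.05, or 54.9%. Of these, 3234 (28.7%) were higher and 2944 (26.2%) were lower in C-Myc-sh, and the median change over all tested genes was 0.04. In 7002 genes (62.2%) the 3 and 3 arrays did not overlap. With calls this common, a list with shares near 28.7% higher and 26.2% lower is at the background. Of the 7341 tested genes clearly above background, 34.4% were higher and 34.5% lower. Called changes of 1 or more on the log2 scale numbered 900 upward and 707 downward, and changes of 2 or more 201 and 89. Among the 231 tested members of a list of usual MYC-induced targets, such as genes of ribosome assembly and nucleotide synthesis, 197 fell and 8 rose, with a median of -0.58. The count of 197 was 127 when probe sets ending in _s_at or _x_at, which can bind related transcripts, were left out. Wherever these are left out, fewer genes are tested, so a count can fall without a lost call. SRM, the spermidine synthase, fell without overlap of arrays (log2 change -2.02, SE 0.06, limma adjusted p = 4.2e-12). LYAR, a nucleolar growth regulator, fell by 2.13. TRAP1, the mitochondrial HSP90, fell by 2.10 with its brightest probe set and was not called with the mean of all its probe sets (-0.51, limma adjusted p = 0.421). TERT, the catalytic subunit of telomerase, fell from a control signal that was itself not clearly above background, by at least 1.97 against the level of 5.77.

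**Figure D1:**
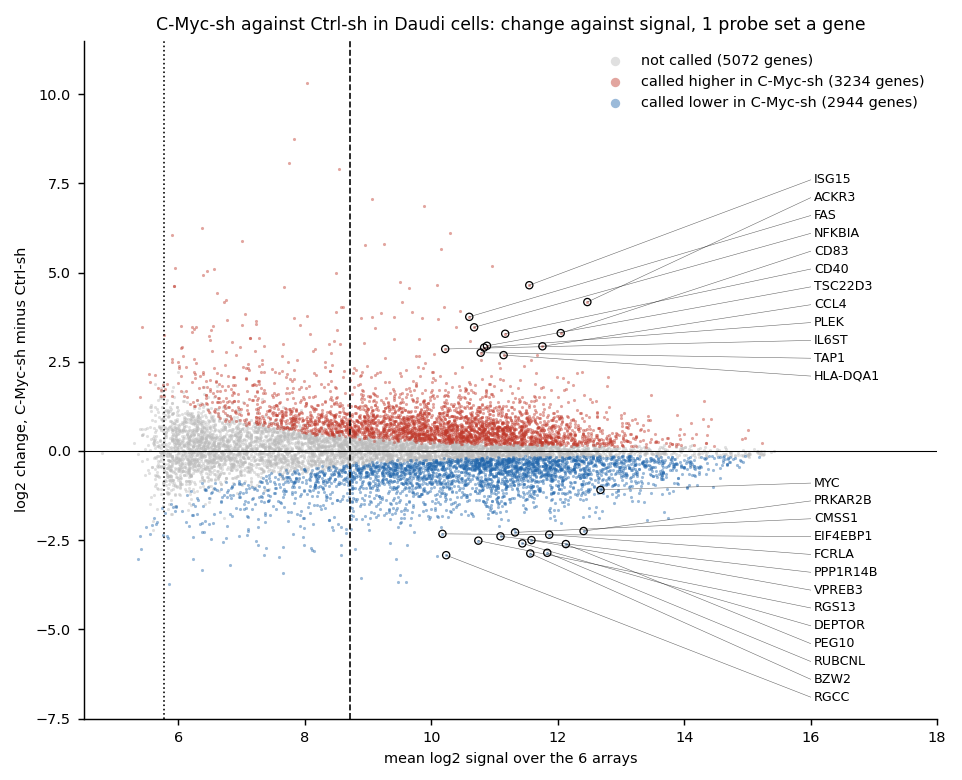
Log2 change of C-Myc-sh minus Ctrl-sh (vertical axis) against the mean log2 signal of the 6 arrays (horizontal axis), 1 point for each of the 11250 tested genes, red where called higher, blue where called lower and grey where not called. The dotted line marks 5.77 and the dashed line 8.71, and the named circles are MYC and the genes with the 12 highest and 12 lowest changes that were clearly above background in both groups and are no usual MYC targets.

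Outside the usual MYC targets, the lowest changes among genes that were clearly above background in both groups were the following 12. RGCC, a regulator of the cell cycle that binds CDK1, read 11.77, 11.66 and 11.66 in Ctrl-sh and 8.76, 8.77 and 8.79 in C-Myc-sh (log2 change -2.92, SE 0.10, limma adjusted p = 7.7e-12). BZW2, an eIF5-like protein that tunes start codon choice, fell from 13.11, 13.07 and 12.83 to 9.96, 10.21 and 10.21 (log2 change -2.87, SE 0.10, limma adjusted p = 8.2e-12). RUBCNL, also known as Pacer, an autophagy protein of the Rubicon family, had 13.26, 13.28 and 13.24 in Ctrl-sh and 10.25, 10.29 and 10.68 in C-Myc-sh (log2 change -2.85, SE 0.09, limma adjusted p = 5.1e-12). For all 3 genes every C-Myc-sh array lay more than 2 log2 units below every control array. PEG10, a gene of retrotransposon origin, fell by 2.61, and DEPTOR, a subunit that restrains both mTOR complexes, fell by 2.59. EIF4EBP1, a repressor of cap-dependent translation that mTORC1 inactivates, fell by 2.32, with 11.52, 11.27 and 11.23 in Ctrl-sh and 8.69, 9.05 and 9.30 in C-Myc-sh. CMSS1, a nucleolar protein of ribosome assembly, fell by 2.28 and PPP1R14B, an inhibitor of protein phosphatase 1, fell by 2.39. RGS13, which shortens G-protein signalling in germinal centre B cells, fell by 2.51. VPREB3, a chain that associates with the pre-B receptor, fell by 2.50, and FCRLA, an intracellular immunoglobulin-binding protein of B cells, fell by 2.35. PRKAR2B, a regulatory subunit of cyclic AMP-dependent kinase, had 13.55, 13.51 and 13.53 in Ctrl-sh and 11.23, 11.31 and 11.32 in C-Myc-sh (log2 change -2.24, SE 0.05, limma adjusted p = 5.2e-13). Over these 12 genes the SE was 0.05 to 0.13 and the highest limma adjusted p was 1.6e-09. VPREB3, FCRLA and RGS13 are also among the B-cell markers, whose list as a whole had 10 members lower, 8 higher and 2 not called.

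The 12 highest changes by the same rule ran from 2.69 to 4.65. ISG15, a ubiquitin-like modifier that interferon induces, read 9.16, 9.29 and 9.22 in Ctrl-sh and 13.72, 13.95 and 13.94 in C-Myc-sh (log2 change 4.65, SE 0.12, limma adjusted p = 8.1e-13). ACKR3, an atypical receptor that scavenges the chemokine CXCL12, rose from 10.42, 10.24 and 10.48 to 14.49, 14.57 and 14.60 (log2 change 4.18, SE 0.07, limma adjusted p = 1.3e-14). FAS, the death receptor for FAS ligand, rose from 9.03, 8.59 and 8.54 to 12.39, 12.50 and 12.55 (log2 change 3.76, SE 0.14, limma adjusted p = 2.2e-11). Its call was lost without probe sets ending in _s_at or _x_at (log2 change 1.81, limma adjusted p = 0.0567). NFKBIA, the inhibitor that holds NF-kB in the cytoplasm and is itself an NF-kB target, rose by 3.47. CD83, a surface marker of activated B cells and dendritic cells, rose from 10.36, 10.43 and 10.39 to 13.65, 13.74 and 13.71 and CD40, the receptor through which T cells help B cells, by 3.29. TSC22D3, the glucocorticoid-induced leucine zipper, rose by 2.95. CCL4, a chemokine that B cells secrete on activation, rose by 2.93, and PLEK, the protein kinase C substrate pleckstrin, by 2.90. IL6ST, the signal-transducing chain gp130 of the interleukin-6 receptors, rose by 2.86, and its mean over all probe sets gave 1.23, which was not called (limma adjusted p = 0.09). TAP1, which pumps peptides to MHC class I molecules, rose by 2.75 and HLA-DQA1, a class II chain, by 2.69. The SE of the 12 ran from 0.06 to 0.14 and the highest limma adjusted p was 7.0e-11. The 24 genes were chosen by this change, its call and the lack of overlap between the groups, so these values describe them and their tests support nothing further.

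Set directly against Slc7a5-sh, which shares these C-Myc-sh arrays and for which 49.5% of the tested genes were called, the 12 highest genes differed by 1.48 to 4.23 and the 12 lowest by -2.97 to -1.26. The highest limma adjusted p among the 24 was 1.8e-06. In the Slc7a5-sh cells the same genes had changes against the shared controls of -0.43 to 1.47 for the 12 highest and of -1.46 to 0.12 for the 12 lowest.

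Promoter sequence was set beside these extremes because MYC binds E-boxes, while the factors of the interferon response and NF-kB recognise other motifs. RefSeq start sites of GRCh38.p14 gave windows from 250 bases before to 50 bases after a start for 9226 of the tested genes, 13375 windows in all. The E-box CACGTG reads the same on both strands and was in 9.46% of these windows. It was in 21.1% of the windows of usual MYC targets, in 11.2% of those of genes called lower and in 8.51% of those of genes called higher. Among genes that fell by 1 or more on the log2 scale and are no usual MYC targets the share was 9.56%. Only 1 of the 9 genes with a window among the 12 lowest, PRKAR2B, held the E-box. The letters GAAA, any 2 bases and GAAA again, a pattern of interferon-response elements searched on both strands, were in 2.98% of the windows of tested genes, in 7.39% of those of genes that rose by 1 or more and in 61.9% of those of the interferon-stimulated genes. The letters GGG, any 5 bases and CC, a loose form of the NF-kB site, searched in the same way, were in 71.3% of all tested windows and in 69.7% of those of genes called higher. A match describes the letters and not a bound site. The 250 bases before the start site are given for 3 of the extremes, 5′ to 3′, to show what such windows hold.

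In PRKAR2B, at chr7:107044455-107044704 on the plus strand, the capitals mark the E-box, at positions -137 to -132 from the start.
PRKAR2B: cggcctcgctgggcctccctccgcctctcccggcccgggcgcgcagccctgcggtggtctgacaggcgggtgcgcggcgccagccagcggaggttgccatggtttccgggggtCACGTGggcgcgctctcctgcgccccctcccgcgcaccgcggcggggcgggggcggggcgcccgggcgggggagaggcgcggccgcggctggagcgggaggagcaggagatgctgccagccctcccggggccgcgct

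In ISG15, at chr1:1013247-1013496 on the plus strand, the central capitals mark a pair of overlapping interferon-type matches at positions -113 to -98 from the start, and the outer capitals mark NF-kB-type matches, which begin at -127 and -62.
ISG15: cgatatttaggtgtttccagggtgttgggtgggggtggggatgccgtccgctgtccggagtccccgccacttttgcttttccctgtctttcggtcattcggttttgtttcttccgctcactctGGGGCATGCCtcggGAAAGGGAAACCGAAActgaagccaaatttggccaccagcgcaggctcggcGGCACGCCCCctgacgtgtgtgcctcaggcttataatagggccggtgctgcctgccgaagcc

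In FAS, at chr10:88990548-88990797 on the plus strand, the first of 3 windows, the capitals mark overlapping NF-kB-type matches at positions -216 to -206 from the start.
FAS: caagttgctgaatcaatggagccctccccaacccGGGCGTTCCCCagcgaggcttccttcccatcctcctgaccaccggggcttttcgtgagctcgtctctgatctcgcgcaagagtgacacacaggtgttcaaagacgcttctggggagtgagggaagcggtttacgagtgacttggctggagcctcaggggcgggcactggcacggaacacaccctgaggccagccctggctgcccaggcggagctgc

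A further 22 genes were clearly above background in C-Myc-sh while their control mean lay below 5.77, and 0 genes showed the reverse. Signals below that level vary strongly on a log scale, so changes are given against 5.77. IFI44L, an interferon-induced gene, read 13.13, 13.18 and 13.26 in C-Myc-sh and 1.53, 3.33 and 3.74 in Ctrl-sh, a rise of at least 7.42. CCL22, a chemokine that draws regulatory T cells, read 12.22, 12.26 and 12.13 in C-Myc-sh, at least 6.43 above that level. EBI3, a subunit shared by the cytokines interleukin-27 and interleukin-35, rose by at least 6.01. The long non-coding RNA LINC00158 read 12.56, 12.35 and 12.58 in C-Myc-sh against 3.66, 4.02 and 6.11 in Ctrl-sh, a rise of at least 6.73. IFIT1, which binds RNA lacking the mature cap, rose by at least 6.82 and IFI27 by at least 3.73. These genes were chosen by their signals in both groups and by their call, so their values are a description. IL1R2, the decoy receptor for interleukin-1, and the kinase JAK3 belong to the same 22 genes and were picked out after their values were seen, with rises of at least 4.18 and 4.19. Another JAK3 probe set, with a mean signal of 7.30, rose by 1.03.

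Of 25 tested genes of a list of SLAM, B7, butyrophilin and other surface molecules, most of which serve contacts between lymphocytes, 15 rose and 2 fell, with a median of 1.22. SLAMF1, a self-binding receptor that is also a measles virus receptor, was not clearly above background in Ctrl-sh, at 6.90, 6.62 and 5.83, and reached 13.27, 13.30 and 13.38 in C-Myc-sh (log2 change 6.87, SE 0.21, limma adjusted p = 4.2e-12). Its other 2 measured probe sets had control means below 5.77 and gave 6.07 and 5.67 against that level. CD48, the ligand of the SLAM family receptor CD244, rose from 11.88, 11.85 and 11.85 to 13.61, 13.68 and 13.77 (log2 change 1.83, SE 0.06, limma adjusted p = 5.6e-12). The co-stimulatory ligands CD80 and CD86, looked up after their values were seen, rose by 3.76 and 2.36, with control arrays of 7.74, 7.78 and 7.08 for CD80. Those that fell belong to none of the 3 families. CD52, which alemtuzumab binds, fell by 1.59, and CD320, the receptor that takes up cobalamin, fell by 1.18.

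Of 44 tested integrins, tetraspanins and other adhesion molecules, 15 rose and 9 fell (median 0.33). ICAM1, a ligand of the integrin LFA-1, read 8.18, 8.08 and 8.29 in Ctrl-sh and 12.16, 12.23 and 12.29 in C-Myc-sh (log2 change 4.04, SE 0.11, limma adjusted p = 1.0e-12). ICAM3 rose by 1.78 and CD58, the ligand of CD2 on T cells, by 1.74. ICAM1, ICAM3 and CD58 showed no overlap between the groups. The tetraspanin CD82, picked after its values were seen, rose by 3.90, while the tetraspanin CD81 fell by 0.59. CD24, a surface protein of immature and germinal centre B cells, fell by 0.64, and ITGA4, the alpha chain of the integrin VLA-4, fell by 0.90.

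Cytokine receptors had 12 of 26 tested members higher and 4 lower, and 7 higher and 1 lower when a gene's probe sets were averaged. With the filter at the 75th percentile, which tests fewer members, 5 were higher and 1 lower. Of the 12 members clearly above background over the 6 arrays, 5 rose (41.7%) and 1 fell (8.33%). Among all genes at that level 34.4% rose and 34.5% fell. IL7R, the receptor chain of interleukin-7, had the largest fall of the list and is picked here after its values were seen, with 9.49, 9.38 and 9.23 in Ctrl-sh and 6.41, 6.33 and 5.09 in C-Myc-sh (log2 change -3.42, SE 0.31, limma adjusted p = 2.4e-07). Its C-Myc-sh arrays were all far below its control arrays. Besides IL6ST, IL21R, the receptor chain through which follicular helper T cells drive B cells, read 8.93, 8.71 and 8.82 in Ctrl-sh and 10.74, 10.73 and 10.57 in C-Myc-sh (log2 change 1.86, SE 0.10, limma adjusted p = 1.4e-09). Both groups held together closely and did not overlap with this probe set. Other IL21R probe sets, with mean signals of 8.40 and 8.99, gave 0.93 and 0.255. IFNGR1, a chain of the interferon-gamma receptor, rose by 0.67, a call lost without probe sets ending in _s_at or _x_at (0.94, limma adjusted p = 0.187). IFNAR2, a chain of the type I interferon receptor, fell by 0.43 with the probe set used, and the change was 0.07 without probe sets ending in _s_at or _x_at (limma adjusted p = 0.682). In the TNF receptor superfamily 5 of 17 tested genes rose and 4 fell, close to the shares of all tested genes in both directions. Of the 6 clearly above background 3 rose (50%) and 3 fell (50%), against 34.4% and 34.5% of all genes at that level. TNFRSF10B, a receptor of the death ligand TRAIL, read 9.85, 9.93 and 9.42 in Ctrl-sh and 11.14, 11.07 and 11.12 in C-Myc-sh (log2 change 1.38, SE 0.12, limma adjusted p = 1.7e-07). With the mean of all its probe sets its change was -0.09 (limma adjusted p = 0.852). TNFRSF10A, the other TRAIL death receptor, fell by 0.51, and that call was lost with the mean of all probe sets (-0.31, limma adjusted p = 0.0739). TNFRSF21, also known as death receptor 6, fell by 1.03 and CD27, a receptor of memory and germinal centre B cells, fell by 0.53.

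The ligand of CD27 moved the other way. CD70 rose from 11.31, 11.64 and 11.47 to 12.99, 12.64 and 12.93 (log2 change 1.38, SE 0.10, limma adjusted p = 1.8e-08), and neither CD27 nor CD70 showed an overlap of arrays. Of 8 tested TNF superfamily ligands, 4 rose and 1 fell. TNFSF9, the ligand of the T-cell receptor 4-1BB, rose by 1.22. LTB, lymphotoxin beta, rose by 1.55 with the probe set used, and its remaining probe set, with a mean signal of 6.51, gave -0.02. The one that fell was TNFSF8, the ligand of CD30, which read 10.12, 10.33 and 10.47 in Ctrl-sh and 8.51, 8.63 and 8.06 in C-Myc-sh (log2 change -1.91, SE 0.14, limma adjusted p = 3.5e-08).

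Receptors of the G-protein-coupled class had 5 of 17 tested members higher (29.4%) and 6 lower (35.3%). The higher count was 3 with averaged probe sets and 1 with the filter at the 75th percentile, which tests fewer members. ACKR3 and CXCR4 bind the same chemokine, CXCL12, which places germinal centre B cells in the dark zone. While ACKR3 rose, CXCR4 read 13.67, 13.81 and 13.56 in Ctrl-sh and 12.62, 12.61 and 12.55 in C-Myc-sh (log2 change -1.08, SE 0.07, limma adjusted p = 1.2e-08). Every C-Myc-sh array was below every control array for CXCR4 and above for ACKR3. GPR160, an orphan receptor, fell by 1.19 (SE 0.05), and GPR18, a lipid-sensing receptor of lymphocytes, fell by 0.76.

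Toll-like, lectin, Siglec and Fc receptors had 17 of 35 tested members higher and 8 lower, and 11 higher without probe sets ending in _s_at or _x_at, where the median turned from 0.30 to -0.09. CD180, a TLR4-like receptor of B cells that pairs with MD-1, read 10.53, 10.47 and 10.60 in Ctrl-sh and 8.19, 8.57 and 8.43 in C-Myc-sh (log2 change -2.14, SE 0.12, limma adjusted p = 1.4e-09). LY96, known as MD-2 and the partner of TLR4 itself, rose instead, by 1.58 (SE 0.13). The complement regulators CD46 and CD59, which protect a cell from complement, rose by 0.93 and 1.08. CD22, an inhibitory Siglec of the B-cell receptor that was looked up after its values were seen, fell by 1.25. Receptor kinases, plexins, ephrin and semaphorin genes gave 9 of 32 members higher (28.1%), near the share of all tested genes, and 5 lower (15.6%). With the mean of all probe sets 2 were higher. Of the 10 clearly above background 6 rose (60%) and 2 fell (20%), against 34.4% and 34.5% of all genes at that level.

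**Figure D2:**
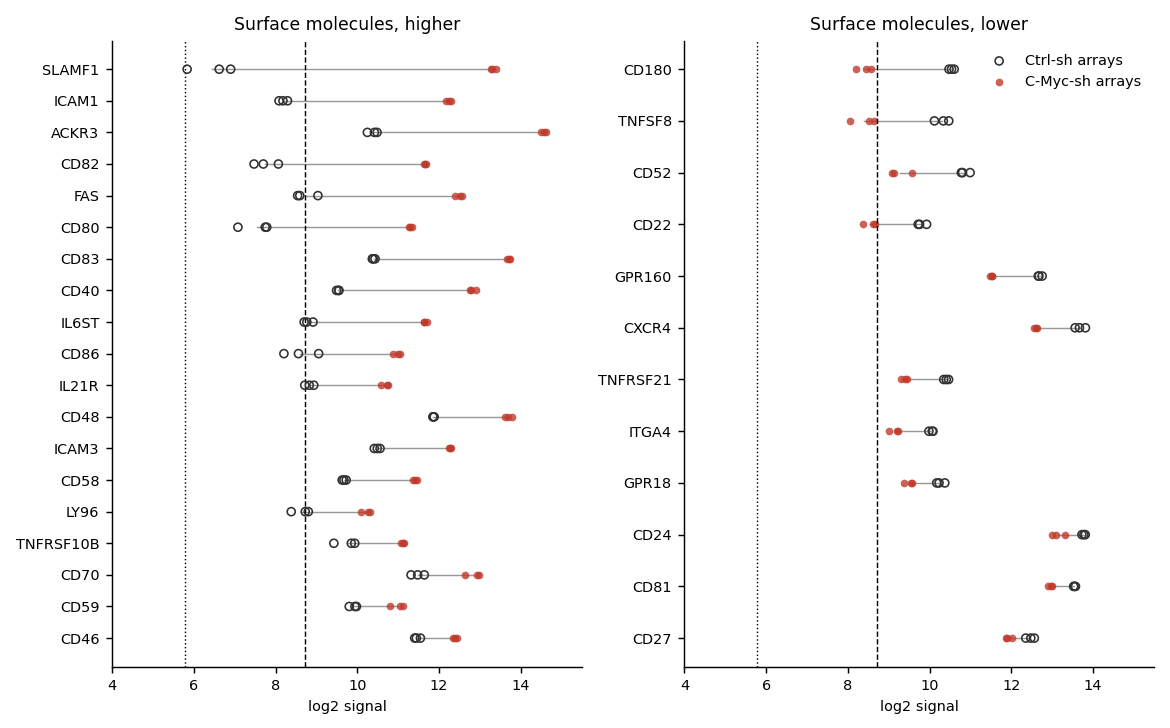
Log2 signal (horizontal axis) of surface molecules that were called higher (left) or lower (right) in C-Myc-sh, with 1 open circle for each Ctrl-sh array, 1 red point for each C-Myc-sh array and a grey line between the group means. The dotted line is 5.77 and the dashed line 8.71; rows are different probe sets, so their levels are not to be compared with each other, and in each row the groups are apart.

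Transcription factors changed in both directions. Of 56 tested lymphoid lineage factors 23 (41.1%) rose and 20 (35.7%) fell, against 28.7% and 26.2% of all tested genes, and the lower count was 13 when probe sets were averaged. MYB, which sustains proliferating blood progenitors, read 12.38, 12.36 and 12.48 in Ctrl-sh and 10.42, 9.96 and 10.25 in C-Myc-sh (log2 change -2.20, SE 0.10, limma adjusted p = 2.9e-10). That call was lost with the mean of all its probe sets (-0.47, limma adjusted p = 0.533). IKZF1, the lymphoid regulator Ikaros, fell from 13.68, 13.68 and 13.61 to 12.40, 12.47 and 12.47 (log2 change -1.21, SE 0.05, limma adjusted p = 1.5e-10). RUNX3, a Runt-domain factor induced in activated B cells, rose from 9.67, 9.63 and 9.73 to 11.57, 11.39 and 11.69 (log2 change 1.88, SE 0.10, limma adjusted p = 6.4e-10). In IKZF1 and RUNX3 the arrays of a group lay close together and the groups did not overlap. MEF2A rose by 1.09 and ZBTB18 by 1.08. Among members chosen after their values were seen, LEF1, the WNT effector of early lymphocytes, fell by 1.83 and BCL6, the germinal centre repressor, fell by 0.92. EBF1 and PAX5, which establish B-cell identity, rose by 0.85 and 0.62.

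Of 27 tested basic helix-loop-helix factors outside the MAX network, 8 rose (29.6%) and 6 fell (22.2%), near the shares of all tested genes. Of the 15 clearly above background 7 rose (46.7%) and 3 fell (20%), against 34.4% and 34.5% of all genes at that level. ID3, an inhibitor of E proteins that is often mutated in Burkitt lymphoma, read 13.28, 13.39 and 13.29 in Ctrl-sh and 11.38, 11.43 and 11.62 in C-Myc-sh (log2 change -1.85, SE 0.07, limma adjusted p = 5.0e-11), and ID2 fell by 0.67. TCF3, the E protein that ID3 restrains, fell by 1.54, but its control arrays were uneven at 13.30, 13.19 and 12.12 and the change without probe sets ending in _s_at or _x_at was -0.12 (limma adjusted p = 0.746). HEY1, a repressor downstream of NOTCH, rose from 8.83, 8.56 and 8.71 to 11.01, 11.08 and 10.98 (log2 change 2.32, SE 0.11, limma adjusted p = 3.4e-10). HES1, another NOTCH-responsive repressor looked up after its values were seen, rose by 1.54, and its mean over all probe sets gave 0.70, which was not called (limma adjusted p = 0.0712). HIF1A, the oxygen-regulated factor, rose by 1.00 and TFEB, which activates lysosomal genes, by 1.26 (SE 0.05 to 0.08). The control arrays of TFEB all read 10.44.

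AP-1, EGR, NR4A and MAF family factors had 11 of 19 tested members higher and 3 lower, with 5 and 2 of them clearly above background, and 7 higher with the mean of all probe sets. The lower count was 1 without Ctrl-sh replicate 2 or 3, or without C-Myc-sh replicate 1 or 2. IER5, an immediate early gene, read 10.67, 10.78 and 10.67 in Ctrl-sh and 12.52, 12.60 and 12.63 in C-Myc-sh (log2 change 1.88, SE 0.06, limma adjusted p = 7.7e-12). JUN, the AP-1 subunit, rose by 2.21. BACH2, which holds B cells back from plasma cell differentiation, fell from 13.14, 13.23 and 13.15 to 12.04, 11.98 and 11.90 (log2 change -1.20, SE 0.05, limma adjusted p = 1.9e-10). Of 28 tested NF-kB, IRF and STAT factors with their inhibitors 21 rose and 1 fell, with a median of 1.13. TNFAIP3, the ubiquitin-editing inhibitor A20, rose by 3.15 and CYLD, a deubiquitinase that limits NF-kB, by 2.20. The exception, REL, fell by 0.25, and its call was lost under quantile normalization (-0.16, limma adjusted p = 0.0923), with the mean of all probe sets and without C-Myc-sh replicate 3.

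KLF and SP factors had 6 of 17 tested members higher and 4 lower, among them KLF6 with a rise of 1.23. ETS factors had 7 of 19 higher and 4 lower. ELK4, a partner of serum response factor, rose by 1.14 and SPIB, an ETS factor of B cells, by 0.57, while ETS1 fell by 0.46. Forkhead factors had 2 of 15 higher and 3 lower, and FOXM1, which drives mitotic genes, fell by 1.12. Nuclear receptors had 6 of 18 higher and 2 lower, and NR2C2 rose by 0.79. Among zinc finger genes named ZNF, many are KRAB-type repressors. Of 349 tested members 131 rose and 34 fell, or 37.5% and 9.74%, with a median of 0.31. Among the 175 clearly above background 87 rose (49.7%) and 26 fell (14.9%), against 34.4% and 34.5% of all genes at that level. ZBTB factors had 19 of 37 higher and 3 lower, with a median of 0.36. ZBTB10 read 9.50, 9.67 and 9.70 in Ctrl-sh and 11.62, 11.57 and 11.49 in C-Myc-sh (log2 change 1.93, SE 0.09, limma adjusted p = 1.6e-10). ZNF791 rose by 1.91, and ZNF395 went the other way and fell by 1.85.

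**Figure D3:**
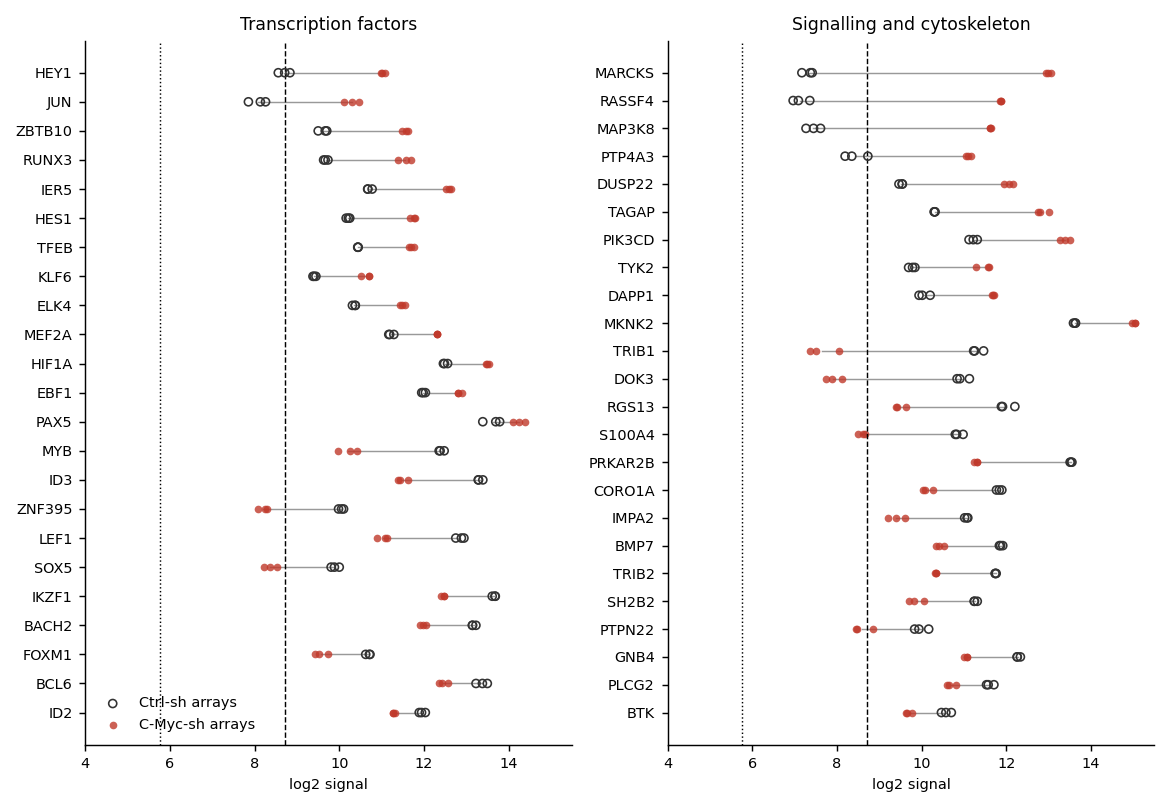
Log2 signal (horizontal axis) of called transcription factors (left) and of called signalling and cytoskeletal genes (right), with 1 open circle for each Ctrl-sh array, 1 red point for each C-Myc-sh array and a grey line between group means. The dotted line is 5.77 and the dashed line 8.71. In each row the groups are apart, and MARCKS, RASSF4 and MAP3K8 are among the rows whose Ctrl-sh arrays lie left of the dashed line.

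Phosphoinositide kinases, phosphatases and their binding proteins had 28 of 58 tested members higher and 8 lower, and 17 and 5 when probe sets were averaged. PIK3CD, the catalytic PI3-kinase subunit that signals from the B-cell receptor, read 11.22, 11.12 and 11.32 in Ctrl-sh and 13.28, 13.51 and 13.39 in C-Myc-sh (log2 change 2.17, SE 0.08, limma adjusted p = 1.5e-11). PLEKHA1, which binds the phosphoinositide PI(3,4)P2, rose by 2.10. IMPA2, an inositol monophosphatase, fell by 1.66 and PIK3C2B, a class II PI3-kinase, fell by 1.14. For each of these 4 genes the groups did not overlap.

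In the RAS and MAP kinase pathway 25 of 77 tested members rose and 17 fell, near the shares of all tested genes in both directions. Of the 51 clearly above background 23 rose (45.1%) and 12 fell (23.5%), against 34.4% and 34.5% of all genes at that level. Some single changes were large. MAP3K8, the kinase TPL2 that links NF-kB to ERK, read 7.45, 7.27 and 7.61 in Ctrl-sh and 11.64, 11.61 and 11.62 in C-Myc-sh (log2 change 4.18, SE 0.14, limma adjusted p = 1.2e-11). RASSF4, a RAS-association protein looked up after its values were seen, rose by 4.73 from a control signal not clearly above background. DUSP22, a phosphatase of the JNK pathway, rose from 9.54, 9.55 and 9.47 to 11.95, 12.16 and 12.07 (log2 change 2.54, SE 0.09, limma adjusted p = 2.6e-11). MKNK2, a kinase of the cap-binding protein eIF4E, rose by 1.40 (SE 0.05). TRIB1, a pseudokinase that directs the COP1 ubiquitin ligase, read 11.47, 11.25 and 11.23 in Ctrl-sh and 7.37, 8.05 and 7.51 in C-Myc-sh (log2 change -3.67, SE 0.15, limma adjusted p = 7.5e-11). With the mean of all its probe sets the change of TRIB1 was -1.78 and missed the threshold (limma adjusted p = 0.0502). Its relative TRIB2 fell by 1.42.

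G proteins, RGS proteins and cyclic AMP enzymes had 19 of 60 tested members lower (31.7%) and 11 higher (18.3%), with a median of -0.13. The lower count was 12 without probe sets ending in _s_at or _x_at. PRKAR2B and RGS13 are described above, and GNB4, a G-protein beta subunit, fell without overlap of arrays (log2 change -1.24, SE 0.07, limma adjusted p = 1.6e-09). Other GNB4 probe sets, with mean signals of 6.55 and 8.87, gave -0.78 and -0.06. CREBL2, a CREB-like factor, rose by 1.04. PRKACB, a catalytic subunit of the kinase that PRKAR2B restrains, rose by 0.40 with its brightest probe set but was lower by -0.22 with the mean of all probe sets (limma adjusted p = 0.036), so its direction depends on the probe set.

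JAK kinases, SOCS proteins and tyrosine phosphatases had 19 of 38 tested members higher and 8 lower, and 12 and 5 when probe sets were averaged. TYK2, the kinase of the type I interferon and interleukin-12 receptors, read 9.84, 9.69 and 9.79 in Ctrl-sh and 11.58, 11.29 and 11.60 in C-Myc-sh (log2 change 1.71, SE 0.10, limma adjusted p = 1.6e-09), and PTP4A3, a prenylated phosphatase, rose by 2.67. SH2B2, an adaptor of receptor kinases, fell by 1.41. PTPN22, which dampens antigen receptor signalling, fell by 1.39 and lost its call with the mean of all probe sets (-0.61, limma adjusted p = 0.144).

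Among SRC, TEC and SYK kinases and their adaptors 16 of 52 tested members rose (30.8%) and 12 fell (23.1%), near the background. TAGAP, a GTPase-activating protein of activated lymphocytes, rose from control arrays of 10.32, 10.30 and 10.31, with no overlap (log2 change 2.54, SE 0.07, limma adjusted p = 1.9e-12). DAPP1, an adaptor recruited by PI3-kinase products, rose by 1.64, a call lost without probe sets ending in _s_at or _x_at (0.94, limma adjusted p = 0.0913), and HCLS1, a cortactin-like SRC substrate, by 0.94. DOK3, an adaptor that inhibits B-cell receptor calcium signals, fell from 10.90, 11.13 and 10.84 to 8.13, 7.75 and 7.88 (log2 change -3.04, SE 0.12, limma adjusted p = 4.4e-11). PLCG2, the phospholipase of the B-cell receptor, fell by 0.92, and its activating kinase BTK fell by 0.89. S100A4, a calcium-binding protein of motile cells, fell by 2.27.

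TGF-beta and BMP signalling genes had 14 of 37 tested members higher and 8 lower, and 9 and 4 when probe sets were averaged. BMP7, a secreted ligand, read 11.84, 11.87 and 11.92 in Ctrl-sh and 10.34, 10.41 and 10.53 in C-Myc-sh (log2 change -1.45, SE 0.07, limma adjusted p = 2.5e-10), and SMAD1, which transmits BMP signals, fell by 0.75. The receptors BMPR2 and TGFBR1 rose by 0.95 and 0.58. WNT, NOTCH, Hedgehog and Hippo genes had 25 of 70 tested members higher and 10 lower. The lower count was 17 under quantile normalization, and the higher count was 13 when probe sets were averaged. The WNT receptor FZD6 rose by 1.94 and ADAM10, the protease that sheds NOTCH and other receptors, by 0.83. DTX1, a NOTCH-induced ubiquitin ligase, fell by 1.28. MFNG, which adds sugars to NOTCH, fell by 1.60 with the probe set used, and a second probe set gave -1.84, while a dim probe set with a mean signal of 5.57 gave 1.04. The call was lost with the mean of all 3 (-0.80, limma adjusted p = 0.0877).

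Genes of the actin cytoskeleton changed in both directions. MARCKS, a myristoylated substrate of protein kinase C that cross-links actin at the membrane, read 7.37, 7.42 and 7.17 in Ctrl-sh and 13.05, 12.98 and 12.94 in C-Myc-sh (log2 change 5.67, SE 0.14, limma adjusted p = 5.2e-13). Its other 4 measured probe sets gave 3.40 to 5.17, with control means below 5.77 set to that level. MARCKSL1, its close relative, rose from 12.71, 12.84 and 12.52 to 14.15, 14.27 and 14.32 (log2 change 1.56, SE 0.08, limma adjusted p = 1.1e-09). For both genes every C-Myc-sh array was at least 1 log2 unit above every control array. CORO1A, a coronin of the leukocyte actin cortex, fell by 1.70 and ELMO1, a partner of DOCK exchange factors, fell by 1.21. The exchange factor DOCK10 itself rose by 1.55.

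Arrestin, BTG, sestrin and clock genes, many of which mark resting cells, had 22 of 43 tested members higher and 9 lower, and 12 higher without probe sets ending in _s_at or _x_at. BTG1, an antiproliferative gene of lymphocytes, rose by 1.10 and lost its call with the mean of all probe sets (0.67, limma adjusted p = 0.0706). SESN1, a p53-induced sestrin, fell by 0.96. Ubiquitin ligases and ubiquitin-editing enzymes had 31 of 65 members higher and 14 lower. MARCHF1, a ligase that removes MHC class II and CD86 from the surface, rose by 2.60, and DTX3L, a partner of PARP9, by 2.04, while UBE2T, of Fanconi anaemia repair, fell by 1.19. Cytidine deaminases, RAG and B-cell receptor diversification genes had 9 of 18 members lower and 3 higher. EXO1, an exonuclease of mismatch repair and class switching, read 10.44, 10.56 and 10.59 in Ctrl-sh and 8.66, 8.55 and 8.28 in C-Myc-sh (log2 change -2.03, SE 0.11, limma adjusted p = 1.6e-09).

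Potassium channel genes had 6 of 23 tested members lower (26.1%, against 26.2% of all tested genes) and 1 higher (4.35%, against 28.7%). The median of the 23 was -0.48, and the higher call was lost in some alternatives, among them quantile normalization. Of the 5 clearly above background 5 fell and 0 rose, against 34.5% and 34.4% of all genes at that level. KCNN3, a calcium-activated channel, fell from 10.79, 10.92 and 10.87 to 9.01, 9.05 and 9.02 (log2 change -1.83, SE 0.09, limma adjusted p = 2.7e-10). ABC transporters had 10 of 23 lower and 4 higher, and 5 lower without probe sets ending in _s_at or _x_at. Histone modifiers and chromatin remodellers, with 42 of 122 members higher and 33 lower, were near the background. CHD2 rose by 1.26, and KDM5A by 1.24 with the probe set used. Other KDM5A probe sets gave -0.28 to 0.91. HMGA1, an AT-hook chromatin protein, fell to 35.3% of the control signal, and SETD7, a lysine methyltransferase, fell by 1.01. The histone gene H2BC12 rose from 9.75, 9.92 and 9.86 to 12.23, 12.33 and 12.35 (log2 change 2.46, SE 0.08, limma adjusted p = 6.5e-12). H2AX fell by 1.01. Of 72 tested phospholipid, sphingolipid and eicosanoid genes 22 rose (30.6%) and 19 fell (26.4%), near the background. ASAH1, the lysosomal acid ceramidase, rose by 1.70. The final steps of phosphatidylcholine synthesis are shared by CHPT1 and CEPT1. CHPT1 fell from 11.74, 11.76 and 11.74 to 10.10, 10.27 and 10.04 (log2 change -1.61, SE 0.07, limma adjusted p = 1.1e-10), while CEPT1 rose (log2 change 0.96, SE 0.06, limma adjusted p = 7.8e-09). Other CHPT1 probe sets, with mean signals of 7.70 and 8.40, gave 0.58 and -0.93.

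**Figure D4:**
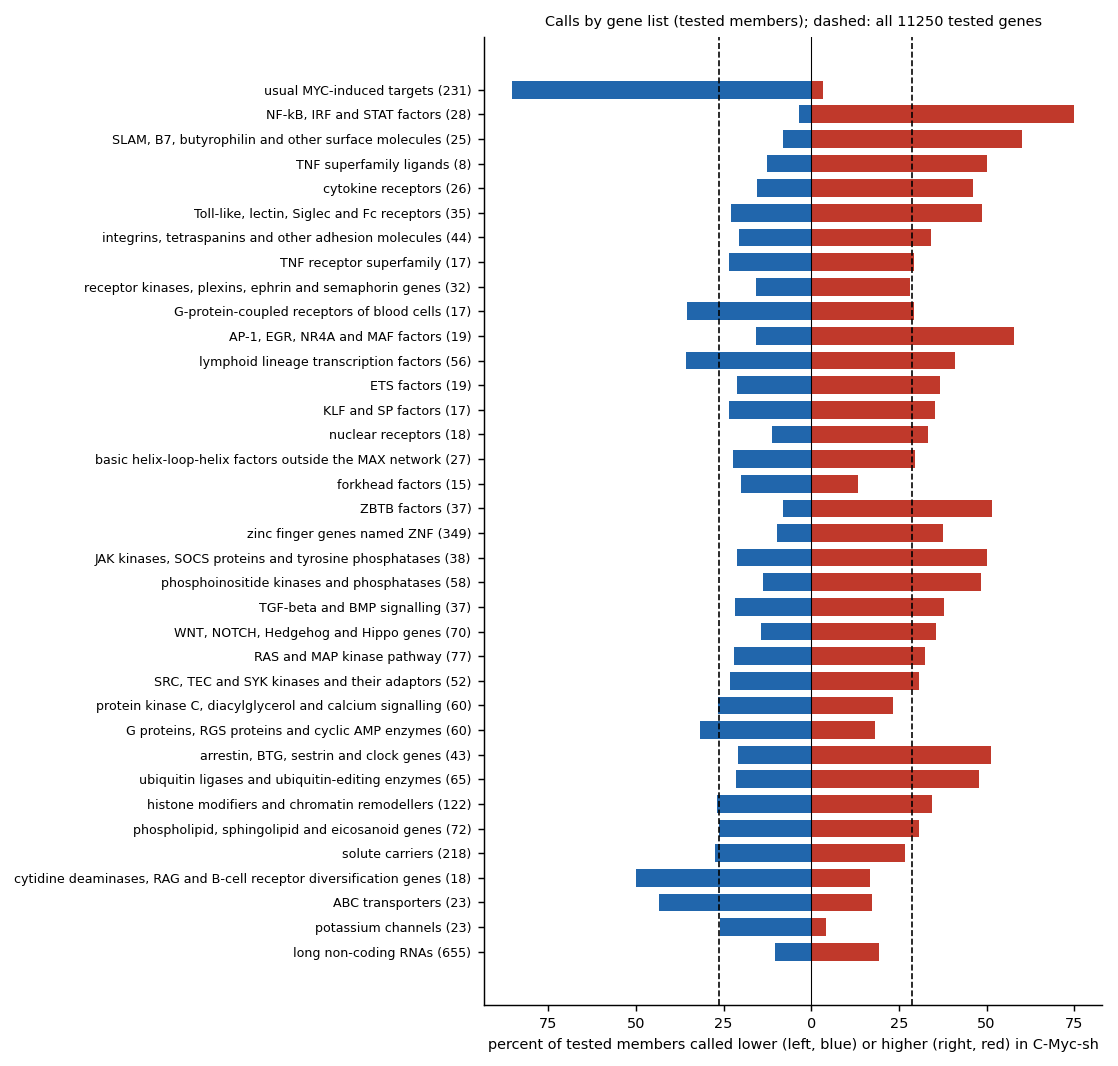
Percent of the tested members of each gene list that were called lower (blue, left) or higher (red, right) in C-Myc-sh, with the number of tested members in brackets. The dashed lines are the same percentages over all 11250 tested genes, 26.2% lower and 28.7% higher; usual MYC targets lie far to the left, NF-kB, IRF and STAT factors and the list with SLAM and B7 molecules to the right, and long non-coding RNAs, most of them dim, fall short of both lines.

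A few of these changes were of similar size in the Slc7a5-sh cells, measured against the same control arrays. SLC7A11, the cystine importer, rose by 2.22 in C-Myc-sh and by 1.95 in Slc7a5-sh, and the direct difference was 0.27 (limma adjusted p = 0.0546). ZBTB18 rose by 1.08 and 0.95, a direct difference of 0.13 (limma adjusted p = 0.132). ALOX5, the first enzyme of leukotriene synthesis, fell by 0.95 in C-Myc-sh and by 1.00 in Slc7a5-sh, with a direct difference of 0.05 (limma adjusted p = 0.59). A p that misses the threshold does not show that the knockdowns act alike. Others moved in opposite directions. SETD7 was -1.01 in C-Myc-sh and 0.71 in Slc7a5-sh, a direct difference of -1.71 (limma adjusted p = 3.0e-11). MKNK2 was 1.40 and -0.45, a difference of 1.85 (limma adjusted p = 1.2e-12), and CXCR4 was -1.08 and 0.30, a difference of -1.39 (limma adjusted p = 1.6e-09). For SETD7, MKNK2 and CXCR4 the Slc7a5-sh change was also called (limma adjusted p = 2.9e-06, 1.3e-05 and 0.00738).

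Of 2660 long non-coding RNAs with a probe set, 655 passed the filter on signal, and of those 126 (19.2%) rose and 67 (10.2%) fell, with a median of 0.14. Only 117 of the 655 were clearly above background, of which 51 (43.6%) rose and 29 (24.8%) fell, where 34.4% and 34.5% of all tested genes at that level did. HCP5, a transcript of the MHC class I region, was not clearly above background in Ctrl-sh, at 7.33, 7.26 and 6.96, and read 10.81, 11.02 and 10.97 in C-Myc-sh (log2 change 3.75, SE 0.18, limma adjusted p = 3.1e-10). LINC00926 rose from 9.07, 8.98 and 9.41 to 10.90, 11.05 and 10.66 (log2 change 1.71, SE 0.16, limma adjusted p = 3.0e-07). LINC01215 read 10.79, 10.72 and 10.82 in Ctrl-sh and 12.11, 12.23 and 12.12 in C-Myc-sh (log2 change 1.38, SE 0.06, limma adjusted p = 2.1e-10). These 3 rose without overlap of arrays. LINC00623 rose by 1.60, MIR570HG by 1.52 and RUSC1-AS1, antisense to RUSC1, by 1.41 (SE 0.08 to 0.19).

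Among those that fell, EMSLR read 10.11, 10.16 and 10.20 in Ctrl-sh and 7.57, 7.68 and 7.01 in C-Myc-sh, where it was no longer clearly above background (log2 change -2.74, SE 0.16, limma adjusted p = 3.0e-09). DANCR, a cytoplasmic RNA that also hosts small nucleolar RNAs, fell from 12.92, 12.88 and 12.90 to 11.36, 11.49 and 11.42 (log2 change -1.48, SE 0.06, limma adjusted p = 8.9e-11). SNHG19, a snoRNA host gene, fell from 11.40, 11.57 and 11.37 to 9.96, 10.19 and 10.02 (log2 change -1.39, SE 0.09, limma adjusted p = 4.8e-09). In DANCR and SNHG19 every C-Myc-sh array was more than 1 log2 unit below every control array. PWAR6, from the Prader-Willi region, fell by 1.76 and RNASEH1-DT, which starts divergently from RNASEH1, fell by 1.12. DLEU2 fell by 1.55 with its brightest probe set (SE 0.07), from 11.66, 11.66 and 11.64 to 10.04, 10.17 and 10.11, but 3 other probe sets of DLEU2 gave 0.26 to 0.35 and 3 others -1.13 to -0.32, so its direction depends on the probe set.

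DLEU2 and MIR181A2HG span microRNA genes by their RefSeq coordinates in GRCh38.p14. The array read the host transcripts and not the mature microRNAs. DLEU2 holds MIR15A and MIR16-1, a pair known as suppressors of BCL2 in B cells, and MIR181A2HG holds MIR181A2 and MIR181B2, a family that tunes lymphocyte development. MIR181A2HG rose from 8.85, 8.78 and 8.84 to 10.20, 10.51 and 10.53 (log2 change 1.59, SE 0.14, limma adjusted p = 1.5e-07). The mature sequences are given 5′ to 3′ with the seed, bases 2 to 8, in capitals, because the members of each pair share it and would share target sites.
hsa-miR-15a-5p: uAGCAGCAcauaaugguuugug
hsa-miR-16-5p: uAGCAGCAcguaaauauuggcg
hsa-miR-181a-5p: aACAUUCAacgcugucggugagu
hsa-miR-181b-5p: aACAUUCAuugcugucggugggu

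**Figure D5:**
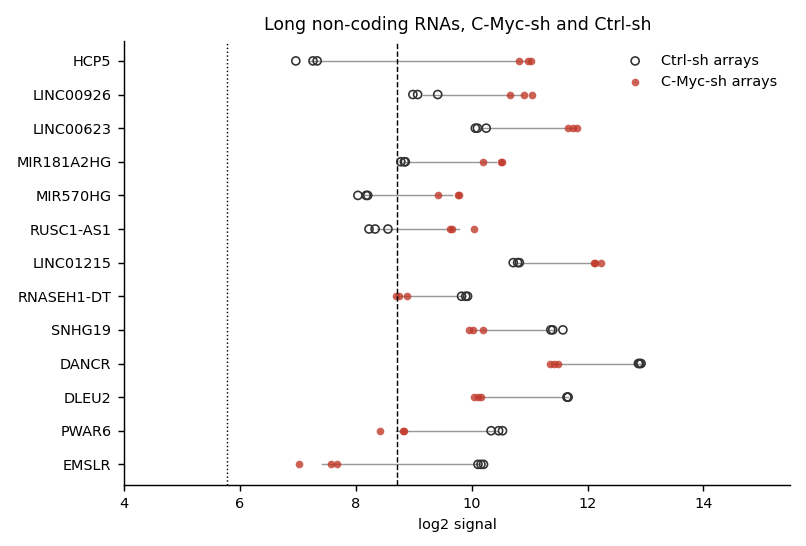
Log2 signal (horizontal axis) of 13 long non-coding RNAs, with 1 open circle for each Ctrl-sh array, 1 red point for each C-Myc-sh array and a grey line between group means. The dotted line is 5.77 and the dashed line 8.71; the upper 7 rose and the lower 6 fell, and the groups are apart in every row, DLEU2 with its brightest probe set only.

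Of 37 tested interferon-stimulated genes 34 rose and 2 fell, with a median of 2.99, and of 16 class II genes 13 rose and 1 fell, with a median of 0.93. The control signals of many interferon-stimulated genes were low. With the filter at the 75th percentile, which tests fewer members, 17 rose. Of the 23 interferon-stimulated genes clearly above background, 21 rose (91.3%) and 2 fell (8.7%), against 34.4% and 34.5% of all genes at that level. Of all tested members of that list 91.9% rose and 5.41% fell. Of 218 tested solute carriers 58 rose and 60 fell, at the background. SLC4A7, a sodium bicarbonate transporter, read 11.68, 11.71 and 11.73 in Ctrl-sh and 10.34, 10.13 and 9.93 in C-Myc-sh (log2 change -1.57, SE 0.10, limma adjusted p = 4.0e-09), and SLC38A2, which imports glutamine and alanine, rose by 1.24.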

How the data were processed

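Total RNA of 9 Daudi cultures was measured on Affymetrix expression arrays. The deposited table holds log2 signals per probe set that the authors computed with MAS5, per the submitters' processing notes, which scale each array to a common target. The MAS5 version is not given in the sources used here. Probe sets with exactly 1 gene symbol in the platform annotation were kept, and 41037 of 41091 matched a RefSeq gene. The probe set with the highest mean stood for its gene, and genes below the median of all probe-set means, 5.77, were left out.

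Group means of all 9 arrays were fitted with limma 3.58.1 in R 4.3.3 (lmFit, then eBayes with a trend), with Benjamini-Hochberg adjustment over 11250 genes and a threshold of 0.05. The steps were tested on simulated data. The members and gene lists were chosen with earlier results of these data known. Named genes were MYC, the 12 highest and 12 lowest changes outside the usual MYC targets, up to 6 genes each way that crossed from below 5.77 to at or above 8.71, the 4 lowest usual MYC targets, up to 3 called genes per list and direction by p, and 6 long non-coding RNAs each way. The text prints some of these and says where a gene was picked otherwise. Long non-coding RNAs were taken by RefSeq biotype, a step settled after the files were seen. Promoter and microRNA sequences are RefSeq's, GRCh38.p14. The shown promoters were the first in each direction with a match. The counts of 1 gene list are not reported here.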

Additional observations from a re-analysis of the deposited data

How the results depend on the processing

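Under 16 alternatives, 6 of which left out a single array, both counts of called genes stayed within 1.5 times. Genes called higher numbered 2943 to 3052 with an array left out and 2412 to 3313 otherwise, and genes called lower 2695 to 2822 and 2067 to 3093. The MYC change stayed between -1.12 and -0.95, with no value without probe sets ending in _s_at or _x_at, since its only probe set is one of these. With the replicate number as a block 3204 genes were higher and 2943 lower, and deviations of same-numbered arrays correlated at -0.02 to 0.02, so the numbers do not pair the arrays. Of the 310 genes of the naming rule besides MYC, 237 kept direction and call under every alternative that gave them a value (242 of the 310 had one without probe sets ending in _s_at or _x_at, and 300 with the filter at the 75th percentile), 73 lost the call or turned in at least 1 alternative, and 23 of those turned. Among the genes printed, those that turned were DLEU2 (0.28), IFNAR2 (0.065), LTB (-0.022) and MFNG (1.04) without probe sets ending in _s_at or _x_at, and PRKACB (-0.22) and TNFRSF10B (-0.093) with the mean of all probe sets; these values come from other probe sets of the gene. Of 120 list counts, 72 moved by over 1.5 times in at least 1 alternative, most often with the mean of all probe sets (36), without probe sets ending in _s_at or _x_at (34) and with the filter at the 75th percentile (28). Leaving out those probe sets or raising the filter also tests fewer genes, so a count can fall there without a lost call. Signal near background limits the values below 5.77.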
